A study of Mus musculus with 6 samples.

Results

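Cytosolic ribosomal proteins are the protein parts of the ribosomes that translate nuclear-encoded mRNA, and 32 of their genes were followed here in mouse blood neutrophils. They were chosen by gene symbol, 19 from the large subunit and 13 from the small one, by a rule that sets no threshold on measured values. Of the 32 genes, 24 had a probe set annotated to that gene alone, and 23 were bright enough to be tested, among 10960 genes tested in all. Rps16 was measured at 1.7 to 19.5 signal units, below the brightness filter, and was not tested. Another 7 genes (Rplp1, Rpl3, Rpl5, Rpl13, Rpl23, Rpl28 and Rpl32) were named only on probe sets shared with pseudogenes or other genes, and Rpl18 was named on none in the annotation used. Those genes have no value of their own below.

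The arrays came from 6 mice on a C57 background. The 3 phd3 null mice lacked phd3, the oxygen-dependent prolyl hydroxylase gene now called Egln3, and the other 3 were wild type (bl6 in the source labels). Neutrophils of each mouse were taken from peripheral blood by negative magnetic selection and then kept for 4 h at 3% oxygen, so hypoxia is common to both genotypes, and no sample at normal oxygen was analysed here. The labels give neither the age or sex of the mice nor how the null allele was made, so its cell type range is not known here. Samples are numbered 1 to 3 in each genotype, and same-numbered samples share a code in their source labels. They are called a pair below.

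Most of these proteins are present in a single copy per ribosome, and their genes are known to be expressed together. Their mRNAs begin with a run of pyrimidines at the cap, the terminal oligopyrimidine (TOP) tract, through which the mTOR kinase and the protein LARP1 control their translation. Mature neutrophils no longer divide and make few new ribosomes.

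The deposited values are MAS5 signals, each array scaled to the same trimmed mean, and a signal does not compare the amounts of different genes. Median signals were 49.4 to 64.2 per array. The arrays of pair 3 correlated least with the rest, with a median of 0.739 in the phd3 null mouse and 0.788 in the wild-type one, where the remaining arrays had 0.838 to 0.866. Egln3 read 29.6 to 87.2 in phd3 null and 327 to 2088 in wild-type samples. Its log2 difference was -3.85, yet the main limma fit did not call it (adjusted p = 0.9996). With the sample number as a block limma did (adjusted p = 0.0014). The β-actin control probe sets gave a 3′ minus 5′ difference of 0.71 to 1.06 log2 units, and the Gapdh ones gave -0.60 to -0.31, and neither was highest or lowest on both arrays of pair 3. The 18S rRNA control was highest there, at 0.86 in phd3 null and 1.08 in wild type, with 0.51 and 0.11 on the other phd3 null arrays and -0.69 and -0.68 on the other wild-type ones. The transferrin receptor control gave 0.30 to 1.87 and was highest on the arrays numbered 2. There its 5′ probe set read only 3.6 in phd3 null and 5.8 in wild type. The part of RNA quality in the results below was not tested.

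Promoter sequences of 25 of the 32 genes were found in RefSeq (GRCm38.p6), in 31 windows of 300 bases. The windows of 5 genes are shown because these genes follow the shared pattern described below to different degrees. Among genes with a single window, Rpsa, Rps18 and Rps15 had the largest F statistics for the sample number, and Rps9 and Rpl37 had the smallest. Each run covers 100 bases before the annotated start and 30 bases from it, and capitals mark the longest stretch of C and T within 20 bases of the start.
Rpsa, chr9:120127666-120127795, plus strand: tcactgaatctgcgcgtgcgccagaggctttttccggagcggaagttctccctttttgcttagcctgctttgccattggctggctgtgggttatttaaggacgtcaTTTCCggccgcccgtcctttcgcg
Rps18, chr17:33955636-33955765, minus strand: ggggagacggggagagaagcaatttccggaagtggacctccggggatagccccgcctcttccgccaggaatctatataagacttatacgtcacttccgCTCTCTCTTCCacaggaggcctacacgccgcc
Rps15, chr10:80292331-80292460, plus strand: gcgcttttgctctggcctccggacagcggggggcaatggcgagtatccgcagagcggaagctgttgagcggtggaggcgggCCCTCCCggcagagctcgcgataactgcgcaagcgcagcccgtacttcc
Rps9, chr7:3703941-3704070, plus strand: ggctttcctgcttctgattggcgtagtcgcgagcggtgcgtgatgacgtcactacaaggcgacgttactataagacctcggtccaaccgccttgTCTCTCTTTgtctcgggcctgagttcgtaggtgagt
Rpl37, chr15:5116513-5116642, plus strand: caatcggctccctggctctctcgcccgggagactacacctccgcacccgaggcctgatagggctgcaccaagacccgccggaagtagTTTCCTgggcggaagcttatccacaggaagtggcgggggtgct

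The marked stretch spanned the annotated start in Rps18 (11 letters) and Rps9 (9 letters). It lay wholly after the start in Rpsa (5 letters), and wholly before it in Rps15 (7 letters) and Rpl37 (6 letters). A stretch of at least 8 letters was present in 10 of the 31 windows (32.3%), against 5272 of all 32851 windows in the table. Annotated starts can lie away from the true cap site, and such a window then misses the tract. The ETS-type motif CGGAAG, on either strand, was in 13 of the 31 windows (41.9%) and in 16.9% of all. GGGCGG, the Sp1-type motif, was in 16 (51.6%) and in 35.7% of all, and these motifs can overlap by 3 letters. The YY1-type motif AAGATGG was in 2 windows (6.5%, 6.3% of all) and TATAAA in 3 (9.7%, 13.6% of all). Among the genes shown, CGGAAG was present in Rpsa, Rps18, Rps15 and Rpl37 and absent from Rps9. The genes shown are too few to relate the motif to the pattern.

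No difference between genotypes was resolved for these genes. Of the 23 tested, 12 were higher and 11 lower in phd3 null samples (17 higher with quantile normalization), with a median log2 difference of 0.00 on the log2(signal + 16) scale, against -0.01 over all genes. The differences ran from -0.63 for Rps2 to 0.58 for Rpl37. In limma 0 of the 23 passed an adjusted p of 0.05, where 0% of all genes passed, and 0 had an unadjusted p under 0.05. With the sample number as a block 0 passed, 0.0182% of all genes passed, and 1 member had an unadjusted p under 0.05. In 0 of 23 genes did the genotypes not overlap, against 6.92% of all genes. The standard errors had a median of 0.45, and 0.22 with the block. Even shifts above 2-fold could go uncalled: without the block Egln3 itself, at -3.85, had a limma adjusted p of 0.9996. With the block Gzma, an NK cell marker, was at -1.13 with an adjusted p of 0.247. The lack of calls therefore does not show that these genes were unchanged.

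The largest differences by genotype lay outside the main body of members. Rps2, a small subunit protein near the mRNA entry site, read 1736.4, 1625.4 and 3297.4 on the phd3 null arrays numbered 1, 2 and 3, and 2353.6, 3615.4 and 4063.8 on the wild-type arrays in that order, which is kept below. It was lower in every pair, the 1 member with the same sign in all 3 pairs (25.6% of all genes have one), at -0.44, -1.15 and -0.30. Its log2 difference was -0.63 (SE 0.40; limma adjusted p = 0.9996, and 0.828 with the block), and phd3 null sample 3 exceeded wild-type sample 1. Leaving out 1 array moved it to between -0.95, when the phd3 null array of pair 3 was omitted, and -0.44, when that of pair 2 was. Rps6, the target of S6 kinase downstream of mTOR, read 65.1, 135.7 and 227.2 in phd3 null and 151.4, 195.6 and 205.2 in wild type. Its difference was -0.46 (SE 0.42), and ran from -0.84 with phd3 null sample 3 left out to -0.05 with phd3 null sample 1 left out. The genotypes overlapped, and pair 3 went the other way. Rpl37, a zinc-binding large subunit protein, read 348.4, 377 and 309.4 in phd3 null and 244.7, 131 and 344.9 in wild type, a difference of 0.58 (SE 0.38), which was 0.23 with wild-type sample 2 left out and 0.88 with wild-type sample 3 left out. Wild-type sample 2 was the low value there, and pair 3 differed by -0.15. Neither Rps2 nor Rpl37 had another probe set of its own to compare with, and Rps6 and Rpl37 had the dimmest probe sets of the tested members.

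Smaller differences followed. Rps15, a protein of the small subunit's head, read 1585, 1600.6 and 3881.4 in phd3 null and 1278.6, 1696.5 and 2692.3 in wild type, a difference of 0.25 (SE 0.45). Rpl11, which travels with Rpl5 and can bind the p53 regulator Mdm2 when free of the ribosome, read 1642.3, 1528.7 and 3187.3 against 1285.5, 1602.2 and 2445.8, a difference of 0.22 (SE 0.40). Rps14, whose loss of 1 copy is known from a myelodysplastic syndrome, read 5022.5, 5450.8 and 9073.3 against 5346.7, 6728.5 and 8604.7, a difference of -0.11 (SE 0.39). In each of these genes the genotypes overlapped, and the arrays of pair 3 were the highest of their genotype.

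The near-zero median joined pairs that went different ways. In pair 1 the phd3 null array was higher for 16 of the 23 genes, with a median log2 difference of 0.06. In pair 2 it was lower for 21, with a median of -0.26. In pair 3 it was higher for 19, with a median of 0.23. Over all genes the pair medians lay between -0.01 and 0.00, while the members' medians differed from 0 in pairs 2 and 3. When 1 array was left out, the members' median ran from -0.37 without phd3 null sample 3 to 0.30 without wild-type sample 3. Omitting the first array of phd3 null gave 0.28 and omitting the first of wild type gave -0.27, so its sign depended on which arrays were present.

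**Figure D1:**
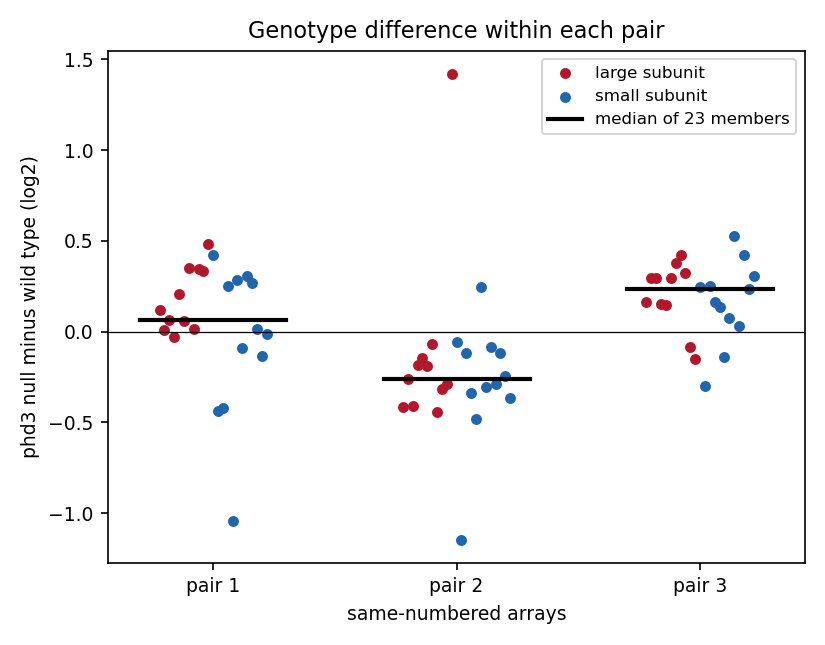
Log2 difference (phd3 null minus wild type, on log2(signal + 16)) of each of the 23 tested genes within each same-numbered pair, large subunit red and small subunit blue, with a black bar at the median. Most genes lie below 0 in pair 2 and above 0 in pair 3, while Rpl37 in pair 2, Rps6 in pair 1 and Rps2 in pair 2 stand away from the rest.

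The members varied with the sample number. In 22 of 23 genes the arrays numbered 3 were the highest in both genotypes, against 23.9% of all genes (20 with quantile normalization). In 20 of 23 number 1 was lowest, number 2 between and number 3 highest in both genotypes, against 8.21% of all genes. Number 3 exceeded number 1 by a median of 1.15 log2 units, a 2.23-fold difference, where all genes differed by a median of 0.07. Sample number held a median of 92.2% of a member's variation over the 6 arrays and genotype 0.50%, against 53.1% and 8.94% over all genes. The first principal component took 88.8% of the members' variation, and 42.0% over all genes.

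A limma F test for the sample number, with genotype in the model, passed for 16 of the 23 genes at an adjusted p of 0.05, where 11.1% of all genes passed. All 16 were also highest in number 3 in both genotypes, and 3.3% of all genes met both conditions. Those called were 8 of 11 large subunit and 8 of 12 small subunit genes, with medians of 1.09 and 1.27 for number 3 minus number 1. The count fell to 5 without phd3 null sample 1, 2 without phd3 null sample 3, 4 without wild-type sample 1 and 0 without both arrays of pair 3. Of all 10960 genes, these fits called 1123, 865, 1129 and 107. Without phd3 null sample 3 the members' share was thus close to that of all genes. It was 11 to 19 members when another array was left out. With the probe sets of a gene averaged 3 members passed, and 602 of 9028 genes. With no brightness filter 10 passed, and 1245 of 18193 genes. When the prior variance had no trend with level 0 members passed, a setting in which 0 of all genes passed.

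**Figure D2:**
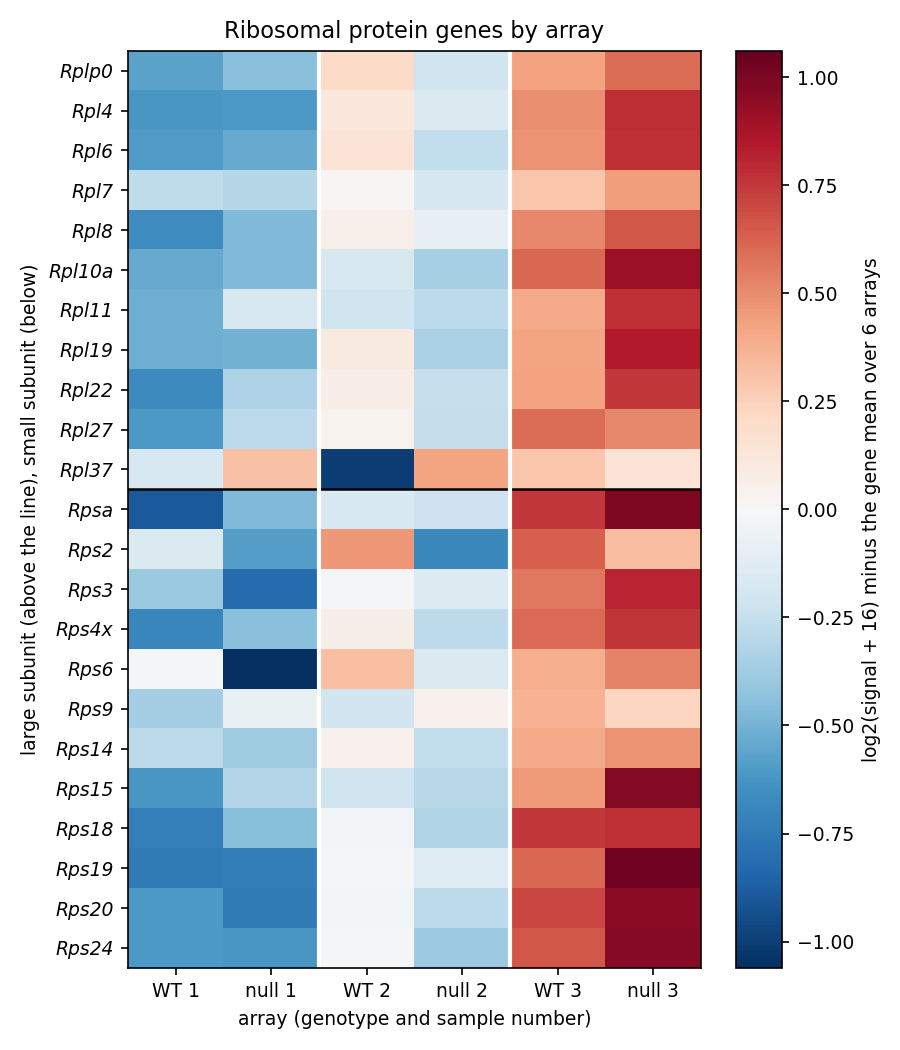
Centred log2(signal + 16) of the 23 tested genes (rows) on the 6 arrays (columns, WT for wild type and null for phd3 null), each row relative to its own mean over the arrays. Both arrays numbered 3 are red in nearly every row and both numbered 1 are blue, with Rpl37 as the row that does not follow.

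Small subunit genes held the largest differences. Rpsa, also known as the laminin receptor precursor, read 1932.1, 2306.9 and 5351.3 in phd3 null and 1436.2, 2403.6 and 4518.9 in wild type. Number 3 was 2.93-fold above number 1 (limma F test, adjusted p = 0.00203), the smallest p of the members. Rps19, the gene most often mutated in Diamond-Blackfan anaemia, read 1470.4, 2230.8 and 5022.7 in phd3 null and 1453.4, 2418.2 and 3741.9 in wild type. It was 2.94-fold higher in number 3 than in number 1 (adjusted p = 0.00236). Rps20, of the small subunit's head, read 2525.7, 3505.2 and 8188.7 against 2772, 4161.5 and 6960.4, a 2.84-fold difference (adjusted p = 0.00376). In all of these the genotypes overlapped, and both arrays numbered 3 lay above the other 4.

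Rps24, also mutated in Diamond-Blackfan anaemia, read 3871.6, 4553.7 and 11654 in phd3 null and 3905.7, 5875.8 and 9422.2 in wild type, 2.69-fold higher in number 3 than in number 1. Rps18, at the contact between the subunits, read 2616.8, 2878.4 and 6178.2 against 2168.7, 3523.4 and 6047.5, a 2.56-fold difference. Rps3, at the mRNA entry and also a DNA repair factor, read 2093.4, 3340.2 and 6478.1 against 2804.1, 3629.9 and 5446.3. These genes and Rps4x, the X-linked member (3700.3, 4153 and 8567.5 against 3111.8, 5260.8 and 7640.4), passed the F test with adjusted p from 0.00733 for Rps18 to 0.0184 for Rps4x. Rps15 passed as well (adjusted p = 0.0129). Rps9, near the mRNA entry, did not: it read 4491.8, 4892.8 and 5570.5 against 3686.9, 4118.2 and 6136.3, 1.43-fold higher in number 3 (adjusted p = 0.447). That is 0.52 log2 units on the probe set used. A nearly as bright Rps9 probe set gave 0.87, and a dim one, at 86.7 to 185.7 signal units, gave -0.40.

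Among large subunit genes, Rpl10a, which forms the mobile stalk by the exit site, read 1672.8, 1814.5 and 4380.3 in phd3 null and 1603.8, 2068.8 and 3561.1 in wild type, 2.40-fold higher in number 3 than in number 1 (limma F test, adjusted p = 0.00725). Rpl4, which lines the exit tunnel, read 2733.6, 3767.3 and 7218.2 against 2719, 4514.3 and 5886.6, a 2.38-fold difference. Rpl8, close to the peptidyl transferase centre, read 1966.8, 2554.5 and 4301.4 against 1702.8, 2829.1 and 3891.6. Both genotypes gave the same order of sample numbers in these genes. Rpl6 read 2457.4, 2979.7 and 6118.6 against 2352.3, 3963.5 and 4992.5, and Rpl19, which bridges the subunits, 2240.4, 2499.1 and 5713.5 against 2216.1, 3398.2 and 4256.5. Rpl22, known for its need in T cell development, read 1990.9, 2112.1 and 4222.5 against 1565.3, 2629.1 and 3371.9. Rpl27 read 1814.3, 1845.1 and 3141.9 against 1437.4, 2260.5 and 3331.3, and was the called gene nearest to the threshold (adjusted p = 0.0478). Number 3 was the highest in both genotypes for each of them.

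The genes that missed the F test still pointed the same way, apart from Rpl37. Rplp0, the base of the stalk that recruits translation factors and a common reference gene in PCR, read 3764.9, 4428.6 and 7721.4 in phd3 null and 3464.3, 5903.1 and 6907.4 in wild type, 2.02-fold higher in number 3 than in number 1 (limma F test, adjusted p = 0.0667). Rpl7 read 4502.2, 4919.2 and 7583 against 4598.6, 5600.6 and 6812.8, 1.58-fold (adjusted p = 0.285). That is 0.66 log2 units on the probe set used, and the other Rpl7 probe sets, also above the filter, gave 0.99 and 1.06. Rps14 differed 1.70-fold (adjusted p = 0.188), Rps2 1.80-fold (adjusted p = 0.127) and Rps6 1.99-fold (adjusted p = 0.260). Rpl37 differed 1.11-fold (adjusted p = 0.647).

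**Figure D3:**
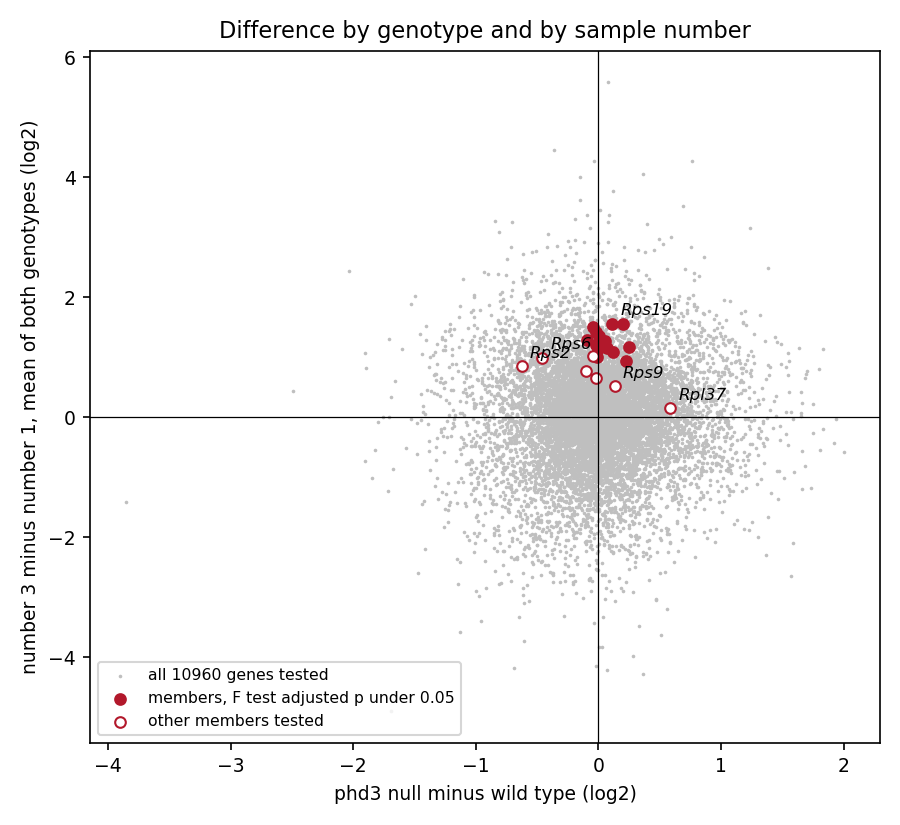
Each gene by its log2 difference between genotypes (horizontal) and its log2 difference between arrays numbered 3 and 1, averaged over genotypes (vertical); grey points are the 10960 genes tested and red points the 23 members, filled where the F test passed. The members sit near 0 across and mostly between 0.9 and 1.6 up, with Rps2, Rps6, Rps9 and Rpl37 away from the others.

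Several probe sets read the same gene in 13 of the tested members. Above the brightness filter, 42 probe sets belonged to the members alone, and 38 of them were highest in number 3 in both genotypes. For Rps24, 4 of its 5 probe sets above the filter gave log2 differences between number 3 and number 1 of 1.41 to 1.48 and the other gave 0.75, while the one below the filter gave -1.05. The genotype differences of all Rps24 probe sets spanned 1.02 log2 units and those of Rps18 spanned 2.04. Restricted to probe sets above the filter these spans were 0.55 and 0.15, so the widest disagreement involved probe sets below it.

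Probe sets naming a member together with a pseudogene or another gene showed the same pattern. Above the filter there were 32, and 26 were highest in number 3 in both genotypes. In an F test over all probe sets, chosen after the data were seen, 14 of the 32 passed (43.8%), against 8.26% of all probe sets, and 23 of the 42 probe sets of members alone passed. The shared probe sets gave a median of 0.90 for number 3 minus number 1 and a median genotype difference of 0.00, with 0 called by genotype in limma.

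Other genes of the translation machinery were compared next. Their counts passing the F test stand beside 11.1% of all genes. Of 10 further large subunit genes, 7 had a higher mean in the null mice (median 0.06), and number 3 minus number 1 had a median of 1.16 with 6 passing the F test. Of 9 further small subunit genes, 5 did so (median 0.03), and 3 passed the F test at a median of 0.69. Rpl39, a small protein of the exit tunnel, had the smallest genotype p of these at -0.71 (SE 0.38; limma adjusted p = 0.9996), followed among large subunit genes by Rpl27a at -0.44 (SE 0.39). Other TOP mRNAs, such as Npm1, a nucleolar chaperone, and Gas5, a snoRNA host, had 9 of 10 highest in number 3, a median of 0.98 and 5 passing. Npm1 read 886.7, 1222.2 and 3231.5 in phd3 null and 868.2, 1523.8 and 2833.1 in wild type, and Gas5 read 500.6, 775.5 and 1667.1 against 483.2, 664.5 and 1570.1. Both genes gave the order of sample numbers seen in the members.

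Translation factors varied less with the sample number. For 7 elongation factor genes the median of number 3 minus number 1 was 0.54, with 1 passing the F test (14.3%). For 21 initiation factor genes it was 0.17, with 2 passing (9.52%). Both shares were near the 11.1% of all genes. Eif4e, the cap-binding protein, differed by -0.56 (SE 0.42) between genotypes. Of 23 ribosome biogenesis genes 9 passed the F test (39.1%), at a median of 0.70, and by genotype 11 were higher and 12 lower. Nip7, a factor of rRNA maturation, had the smallest genotype p of these (-0.65, SE 0.38). Subunits of RNA polymerase I and its factors had 0 of 10 passing by limma F test, with a median of 0.34. Their genotype median of 0.18 included Polr1a, the large subunit, at 0.73 (SE 0.45). Paralogs and assembly partners of the members, such as Rpl22l1, had 2 of 5 passing, at a median of 0.82. The difference between these lists and the members was not tested.

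Regulators and the mitochondrial ribosome did not share the pattern. Among 18 tested genes of mTOR signalling and TOP control, number 3 minus number 1 had a median of -0.10, and the genotype median was -0.05. Regardless of sign, number 3 minus number 1 had a median of 0.75, against 0.54 over all genes. The F test passed for 3 (16.7%), of which 0 were highest in number 3 in both genotypes and 2 were lowest there. Those 2 were Eif4ebp1, at -2.71 for number 3 minus number 1, and Ddit4, at -1.92. Rheb, the activator of mTOR, differed by -0.52 (SE 0.38) between genotypes, and Tsc1 and Mlst8 by 0.50 (SE 0.32) and 0.51 (SE 0.34). Myc, a known activator of ribosome production, read 4.2, 36.4 and 145.4 in phd3 null and 19.4, 38.6 and 132.2 in wild type. It was highest in number 3 in both, like the members, but did not pass the F test. The 42 mitochondrial ribosomal protein genes had a median of -0.11 for number 3 minus number 1, and 2 passed. By genotype 26 of the 42 were lower in phd3 null, with a median of -0.20, and Mrpl19, a large subunit protein of the mitochondrial ribosome, was at -1.48 (SE 0.46; limma adjusted p = 0.9996). In all of these lists 0 genes passed by genotype, with or without the block.

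Among markers of other blood cells, 9 of 11 B cell genes and 3 of 6 T cell genes had the members' order of sample numbers in both genotypes. Over all genes 8.21% had it. The other lists had it in part or not at all. The F test passed for 11.1% of all genes. B cell markers were highest in number 3 in both genotypes for 11 of 11 tested genes, 10 of which passed the limma F test, and the median of number 3 minus number 1 was 2.73. Summed over the list the signal was 1877.9, 3564 and 19216.7 in phd3 null against 2409.3, 5084.5 and 12089.9 in wild type, the same order of numbers as in the members. Within pair 1 the sum was lower in phd3 null, while 16 of the members were higher. Within pair 2 the sum was lower, as 21 of the members were, and within pair 3 it was higher, as 19 of them were. Most of the sum came from the antigen presentation genes Cd74, H2-Aa, H2-Eb1 and H2-Ab1. Cd74 alone read 7105.5 on phd3 null sample 3 and 3910.4 on wild-type sample 3. Counted by gene, 10 of the 11 markers were lower in phd3 null within pair 1, 10 were lower within pair 2 and 10 were higher within pair 3. Cd79b, part of the B cell receptor, read 24.1, 47 and 1316.1 against 43.3, 123.7 and 840.8.

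T cell markers were less clear. Of 10 genes with a probe set of their own 6 were tested, 3 passed the F test, and Cd3e, Cd4, Cd8b1 and Cd6 were below the filter. Their summed signal was 419.3, 820.8 and 1179.9 in phd3 null and 348.5, 957.7 and 885.3 in wild type. The centred medians of the tested genes were -0.66, 0.14 and 0.71 in phd3 null and -0.83, 0.27 and 0.56 in wild type. Those medians had the members' order of numbers in both genotypes. The median of number 3 minus number 1 was 1.61, and 3 of 6 were highest in number 3 in both genotypes. NK cell markers had 8 of 11 passing and a median of 1.55, and 3 of 11 were highest in number 3 in both genotypes. Their centred medians were -1.58, 0.31 and -0.04 in phd3 null and -0.66, 1.18 and 0.89 in wild type, so they were highest in number 2. Erythroid markers had a median of 1.38, with 1 of 5 highest in number 3 in both (3 of 5 passing). The platelet median was 0.18, with 0 of 5 highest in both and 0 passing by limma. Of the eosinophil, basophil and mast cell markers 3 of 10 reached the filter, with a median of 0.99, and 0 passed by limma.

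Neutrophil markers went the other way, with 0 of 12 highest in number 3, a median of -0.55 and 5 passing the F test. Their summed signal was 26445 to 54264 in phd3 null and 44089.3 to 60904.3 in wild type, lowest on sample 3 of each genotype. Monocyte and macrophage markers had a median of -1.16, with 7 of 9 passing. All 12 neutrophil markers with a probe set of their own were above the filter, while Ly6g, Retnlg and Fpr1 had none. On mixed cells, more cells of a type and more RNA per cell cannot be told apart. The part of B cell and other marker signal in the members' pattern was not tested.

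**Figure D4:**
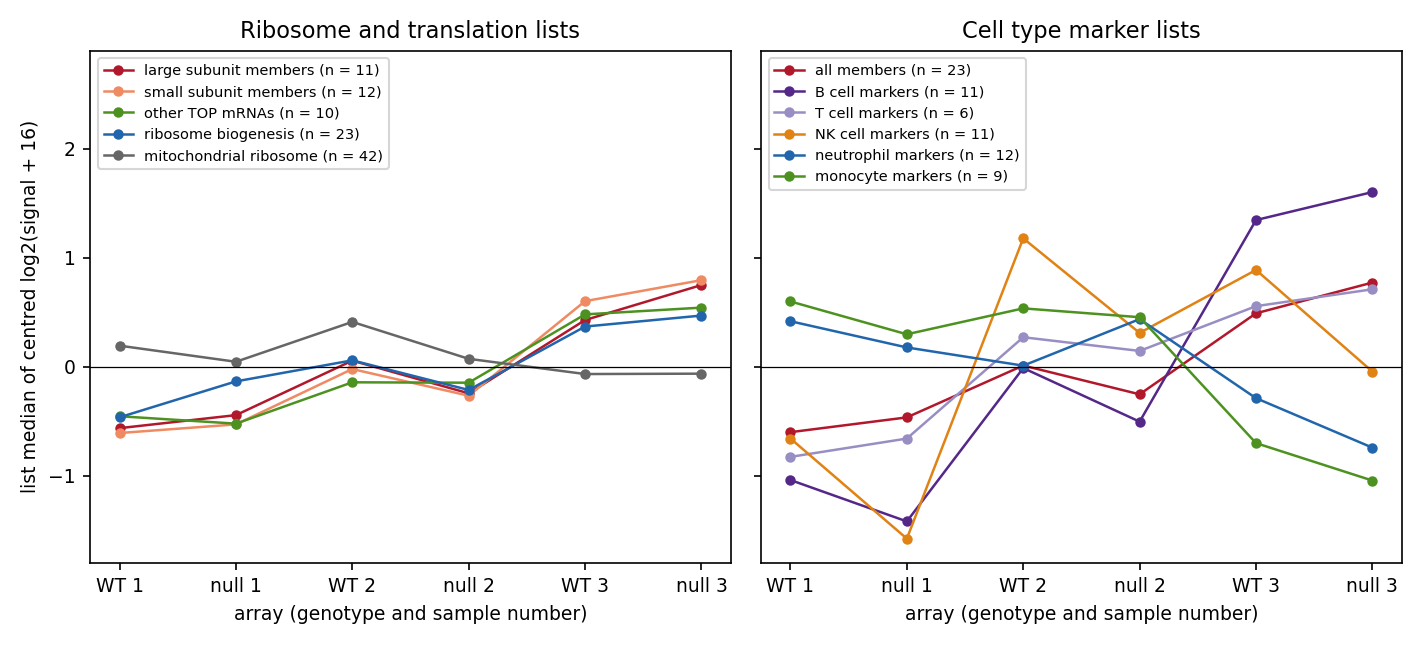
Median over each gene list of centred log2(signal + 16) on the 6 arrays, for ribosome and translation lists on the left and cell type markers on the right; lines join the values of a list and n is the number of genes tested. The members are lowest on the arrays numbered 1 and highest on those numbered 3, as T cell markers are and as B cell markers are over a wider range. Neutrophil and monocyte markers are lowest on the arrays numbered 3.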

How the data were processed

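The submitters' processing notes name MAS5. The deposited values are its signal intensities, linear and scaled per array. The MAS5 version and genome build are not given in the sources used here. Of 45101 probe sets, 64 were controls. The platform annotation gave 34945 probe sets 1 symbol, 932 several and 9160 none. Of 18193 genes, 18032 matched RefSeq (GRCm38.p6), used for names and promoters. Each gene was its brightest probe set, and genes with a mean log2(signal + 16) over the 6 arrays under 5.90 were not tested.

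Genotypes (3 mice each) were compared with limma 3.58.1 in R 4.3.3 (eBayes with a trend, two-sided, Benjamini-Hochberg over 10960 genes, adjusted p under 0.05), without a block. The F test used genotype and sample number. The code was tested on simulated data. Numbers were taken to pair samples because same-numbered samples share a source code. Deviations from group means correlated at 0.292, 0.151 and 0.474 in pairs 1 to 3. Between samples of different number they correlated at -0.363 to 0.177. The 0.177 was between phd3 null sample 2 and wild-type sample 1, so these correlations did not single out pair 2.

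The members and gene lists were chosen with earlier results of these data known. Named genes were the members of largest difference by genotype (3 each way), the 3 of largest F, those whose probe sets differed by over 1 log2 unit, and up to 3 genes of smallest genotype p per other list. Cd79b, Cd74, H2-Aa, H2-Eb1, H2-Ab1, Npm1, Gas5, Rpl22l1, Myc, Eif4ebp1, Ddit4 and the other members given by array were named after their values were seen. The alternatives were other pseudocounts, quantile normalization, other probe set rules and filters, no trend, array weights, the replicate block and leaving out arrays. Array number limits the precision.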

Additional observations from a re-analysis of the deposited data

How the results depend on the processing

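For the ribosomal genes, 0 were called by genotype in limma under every alternative run. Over all genes the count by genotype was 0, and it was 2 with the replicate block, 1 without both arrays of pair 3, and 46 with the block and without pair 3. When 1 array was left out it was 0 to 1. Leaving out 1 array moved the members' median genotype difference between -0.37 and 0.30. The block changed no call of a member. The direction of single genes near 0 was not stable. Rps20 was at 0.29 with probe sets averaged and 0.38 without _s_at or _x_at probe sets. Rps24 was at 0.064 with quantile normalization and 0.42 without those probe sets. The 0.38 and 0.42 came from dim probe sets, at 20.2 to 74.4 and 41.1 to 125.5 signal units. The bright probe sets gave -0.05 and -0.02 for Rps20 and -0.13 to 0.02 for Rps24. Leaving out 1 array, the ranges were -0.95 to -0.44 for Rps2, -0.84 to -0.05 for Rps6, 0.23 to 0.88 for Rpl37, -0.18 to 0.54 for Rps15, -0.11 to 0.47 for Rpl11, -0.37 to 0.068 for Rps14, -0.24 to 0.63 for Rpsa, -0.38 to 0.50 for Rps19, -0.53 to 0.31 for Rps20, -0.39 to 0.38 for Rps18 and -0.51 to 0.30 for Rps24.

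By sample number, the F test called 16 ribosomal genes and 1218 genes in all. These counts were 0 and 0 with no trend in the prior variance, 3 and 602 with probe sets averaged, and, added after the data were seen, 0 and 107 without pair 3 and 37 and 1859 over every probe set, shared ones included. The ribosomal count was 10 with no filter. Leaving out 1 array gave 2 to 19 ribosomal genes and 865 to 1642 genes. The cause of these changes was not tested, and the fits with fewer arrays have fewer degrees of freedom.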
